A study of Mus musculus with 16 samples.

Results

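The C/EBP transcription factors were followed by 5 genes, *Cebpa*, *Cebpb*, *Cebpd*, *Cebpg* and *Cebpz*, out of 24060 genes counted in each RNA-seq library of the somatosensory cortex. They were picked by symbol, after *Cebpa* had been seen among the strongest stress-responsive genes in astrocytes, so the stress effect in astrocyte RNA is described here without a test, and so is every astrocyte value of *Cebpa*. All 5 had a row in all 16 libraries, and all 5 passed the filter on low values (a mean above 1 CPM over the 8 libraries compared) in each of the 4 comparisons. *Cebpe*, a relative known from myeloid cells, had 0 reads in every library, which at this depth allows up to 0.183 CPM.

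The mice were Aldh1l1-cre/ERT2 x RiboTag animals on C57BL/6J (labelled Aldh1l1CreERT2-RiboTag), aged 3 months, which had all received tamoxifen at 2 months by the labels, 1 month before the experiment (the study's methods give 2 weeks). The *Aldh1l1* promoter drives the Cre, and tamoxifen then turns on an HA-tagged ribosomal protein in astrocytes. Ribosome-associated RNA of these cells was precipitated through the HA tag (IP), and RNA of the cleared lysate, with all cell types, served as INPUT. Stressed mice swam for 20 min and recovered for 90 min in the home cage, while naïve mice stayed in the home cage. There were 4 libraries each of naïve IP (replicates 2, 8, 11 and 13), stress IP (4, 5, 6 and 15), naïve INPUT (3, 7, 14 and 16) and stress INPUT (1, 9, 10 and 12), named by the library number. The study's methods give 4 males and 4 females, each homogenized on its own, but the labels give neither the sex of a library nor which IP and INPUT came from the same mouse, so libraries were treated as independent and p-values measure the spread between them.

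C/EBP proteins are basic leucine zipper (bZIP) factors that bind DNA as homodimers or heterodimers. C/EBPα, C/EBPβ and C/EBPδ activate genes of energy metabolism, differentiation and the acute phase response, and their genes respond to cAMP, cytokines and glucocorticoids. In cultured cortical astrocytes, noradrenaline acting through cAMP is known to induce C/EBPβ and C/EBPδ, and the family has been tied to glycogen synthesis there. C/EBPγ, which lacks a transactivation domain of its own, acts through its bZIP partners, among them ATF4. *Cebpz* carries the family's name but encodes a CBF-domain protein without a leucine zipper, related to nucleolar factors of ribosome assembly.

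The libraries held between 16392876 and 25814364 reads on genes (median 21167241). CPM, the unit used throughout, is the number of reads on a gene per 1000000 reads on all genes of a library, with no correction for length. The 7 astrocyte markers (*Aldh1l1*, *Slc1a2*, *Slc1a3*, *Gja1*, *Gjb6*, *Aqp4* and *Gfap*) all had higher CPM in IP than in INPUT. The 8 microglial markers summed to between 21.3 and 36.0 CPM in IP and between 274 and 321 CPM in INPUT, and the 5 neuronal markers to between 328 and 538 CPM in IP and between 9474 and 11100 CPM in INPUT. The endothelial sum was higher in IP (254 to 349 CPM) than in INPUT (65.0 to 122 CPM), although 5 of its 6 markers were lower in IP and 1, *Slco1c1*, was higher. The mean mural sum was also higher in IP, at 167.7 against 122.5 CPM in naïve and 141.1 against 121.4 CPM in stressed mice. Of its 4 markers, 3 were lower in IP and 1, *Pdgfrb*, was higher. Of 5 oligodendrocyte markers, 4 were lower in IP and 1, *Cnp*, was higher. No marker passed the test between stressed and naïve mice (limma, adjusted p under 0.05). At an unadjusted p under 0.05 there were 5 of 33 tested in IP (2 higher after stress, 3 lower) and 11 of 38 in INPUT (3 higher, 8 lower). Of all genes tested, 8.27% in IP and 5.03% in INPUT had such a p. Limma-voom called 0 markers. The log2 fold changes of all 5 neuronal markers were below 0 in IP (−0.33 to −0.21), and those of all 6 endothelial markers were below 0 in INPUT (−0.68 to −0.07, median −0.30), and the part of either in the C/EBP values was not tested. Naïve IP replicate 2 stood apart in the summed *Ttr*, *Dcn* and *Col1a1* of choroid plexus and meninges, at 126 CPM where the other IP libraries held 9.93 to 21.5 CPM. The excess lay in *Ttr*, which reached 113.6 CPM in naïve IP, where *Dcn* and *Col1a1* reached at most 10.9 and 7.13 CPM. In INPUT the highest sum was 37.2 CPM, in naïve replicate 3, where the other libraries held 18.1 to 28.0 CPM. Naïve IP replicate 11 and naïve INPUT replicate 14 each held the highest *Cebpa*, *Cebpb* and *Cebpd* and the lowest *Cebpg* and *Cebpz* of their group. Both are named where they change a value or an order. In bulk RNA, fewer cells of a type and less RNA per cell cannot be told apart.

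On GRCm38, *Cebpa* lies at chr7:35119293-35121928 on the forward strand, and *Cebpg* lies 62719 bases to its left on the reverse strand, at chr7:35046422-35056573. *Cebpb* lies at chr2:167688915-167690418 and *Cebpd* at chr16:15887286-15891031, both on the forward strand. *Cebpz* lies at chr17:78919006-78937066 on the reverse strand. *Cebpa*, *Cebpb* and *Cebpd* each consist of 1 exon, whereas the longest transcript of *Cebpg* has 2 exons and that of *Cebpz* has 16. Exons of *Tmem189*, *Spidr* and *Cebpzos* on the opposite strand share 312, 562 and 171 bases with those of *Cebpb*, *Cebpd* and *Cebpz*, respectively. The sources used here do not say whether the counting used strand, so in those bases the reads of both genes cannot be told apart.

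The start regions of *Cebpa*, *Cebpb* and *Cebpg* are shown, these being the members matched in the RefSeq promoter sequences used here, so that the letters before a start can be read beside the values of its gene. Each runs from 250 bases before to 50 bases after the start of the RefSeq gene on GRCm38.p6, at chr7:35119043-35119342 (+), chr2:167688665-167688964 (+) and chr7:35056517-35056816 (−), in the order given. Capitals mark TATAAA in *Cebpa*, TATAAA and TGACG or its complement CGTCA in *Cebpb*, and ATTGG, the complement of CCAAT, in *Cebpg*.
Cebpa: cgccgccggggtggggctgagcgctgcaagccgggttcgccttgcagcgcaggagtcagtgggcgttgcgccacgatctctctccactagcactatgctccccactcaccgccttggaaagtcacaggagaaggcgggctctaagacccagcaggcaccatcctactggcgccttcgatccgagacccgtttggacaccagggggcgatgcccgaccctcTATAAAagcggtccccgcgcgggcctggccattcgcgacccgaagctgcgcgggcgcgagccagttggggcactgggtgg
Cebpb: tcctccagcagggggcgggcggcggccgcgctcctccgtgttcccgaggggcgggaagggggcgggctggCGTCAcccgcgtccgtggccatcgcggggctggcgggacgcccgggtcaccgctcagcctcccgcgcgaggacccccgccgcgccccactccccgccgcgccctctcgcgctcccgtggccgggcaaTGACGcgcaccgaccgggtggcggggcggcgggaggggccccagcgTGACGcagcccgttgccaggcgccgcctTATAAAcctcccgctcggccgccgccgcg
Cebpg: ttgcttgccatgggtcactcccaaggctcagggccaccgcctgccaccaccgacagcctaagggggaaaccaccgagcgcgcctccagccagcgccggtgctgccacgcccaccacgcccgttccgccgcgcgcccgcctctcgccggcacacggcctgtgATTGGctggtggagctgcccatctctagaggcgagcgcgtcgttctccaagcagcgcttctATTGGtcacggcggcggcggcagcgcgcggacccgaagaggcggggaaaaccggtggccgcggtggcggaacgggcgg
The 3 windows were rich in G and C, with 67.3% in *Cebpa*, 80.7% in *Cebpb* and 71.7% in *Cebpg*, where the median of 32851 promoters of the same length was 52.7%. *Cebpa* held TATAAA beginning 30 bases upstream of the start, and *Cebpb* held it 21 bases downstream. TATAAA was present in 13.6% of all promoters. *Cebpb* alone of the 3 held TGACG, the short core of a cAMP response element, at 180 (as CGTCA), 53 and 7 bases upstream, a motif found in 20.8% of promoters. *Cebpg* alone held CCAAT, on the opposite strand at 89 and 28 bases upstream, and CCAAT was found in 37.4% of promoters. Both strands were searched in every case, and the full element TGACGTCA contains TGACG, so these motifs overlap by construction. None of the 3 windows held TGACGTCA (1.79% of promoters), the C/EBP palindrome TTGCGCAA (0.183%), the C/EBP-ATF composite TTGCATCA (0.895%), AGAACA, a glucocorticoid receptor sequence (19%), or the STAT sequence TTCNNNGAA (8.3%). The start regions of *Cebpd* and *Cebpz* are not shown.

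In astrocyte RNA, *Cebpa*, *Cebpb* and *Cebpd* were higher in stressed than in naïve mice and *Cebpg* and *Cebpz* differed little. *Cebpa*, the activator known from hepatocytes, adipocytes and granulocytes, had 14.1, 15.5, 32.4 and 16.5 CPM in naïve IP replicates 2, 8, 11 and 13, and 36.2, 44.0, 35.1 and 34.4 CPM in stress IP replicates 4, 5, 6 and 15. All stress values lay above all naïve values, and naïve replicate 11 lay close to the stress group. The log2 fold change was 1.00 ± 0.21 (SE, n = 4 libraries per group) with all libraries and 1.27 ± 0.10 without replicate 11, and the ratio of mean CPM was 1.91 and 2.43, respectively.

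*Cebpb*, the factor induced by cAMP and cytokines in many cells, had 1.13, 0.896, 1.92 and 1.20 CPM in the naïve IP libraries and 4.28, 2.12, 2.42 and 3.46 CPM in stress IP, in the same replicate order. The groups did not overlap, and replicate 11 was again the highest naïve library. Its log2 fold change was 1.19 ± 0.28 (SE, n = 4), or 1.39 ± 0.27 without replicate 11. These values rested on few reads, between 20 and 49 in naïve IP and between 43 and 96 in stress IP. *Cebpd*, the factor of early acute phase and differentiation responses, had 4.11, 5.51, 5.60 and 4.84 CPM in the naïve IP libraries and 11.4, 13.9, 10.4 and 9.44 CPM in stress IP. Naïve replicate 11 was highest here too, but by little, and the lowest stress library stood well above it. The log2 fold change of *Cebpd* was 1.15 ± 0.15 (SE, n = 4), or 1.20 ± 0.15 without replicate 11.

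*Cebpg*, the partner subunit, had 34.3, 33.8, 29.1 and 36.8 CPM in the naïve IP libraries and 37.7, 38.9, 37.1 and 32.8 CPM in stress IP. *Cebpz* had 39.7, 42.4, 31.5 and 35.7 CPM in the naïve IP libraries and 44.8, 41.5, 42.5 and 35.6 CPM in stress IP. The groups overlapped for both genes, and replicate 11, the highest naïve IP library for *Cebpa*, *Cebpb* and *Cebpd*, was the lowest for *Cebpg* and *Cebpz*. Their log2 fold changes were 0.13 ± 0.09 and 0.14 ± 0.10 (SE, n = 4), and both were 0.06 without replicate 11.

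By size of increase among the 12501 genes tested in IP, *Cebpb* took place 17, *Cebpd* place 19, *Cebpa* place 23, *Cebpz* place 1525 and *Cebpg* place 1759. For 3 of the 5 genes all stress libraries lay above all naïve libraries, where 2.38% of all genes tested did so, a count that the choice of the genes from this contrast partly fixes. The log2 ratio of *Cebpd* to *Cebpg* was −2.72 ± 0.30 in naïve IP and −1.70 ± 0.15 in stress IP (mean ± SD, n = 4), and that of *Cebpd* to *Cebpz* −2.87 ± 0.32 and −1.87 ± 0.20, both without overlap. The ratios of *Cebpa* to *Cebpg* and *Cebpz* were higher by 0.87 and 0.86 in the stress mean and those of *Cebpb* by 1.06 and 1.05, and in these 4 the groups overlapped. The ratio of *Cebpa* to *Cebpd* was 1.87 ± 0.44 and 1.73 ± 0.09, and that of *Cebpb* to *Cebpd* −1.92 ± 0.42 and −1.88 ± 0.60, both with overlap. These ratios belong to the contrast that chose the genes and were not tested.

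**Figure D1:**
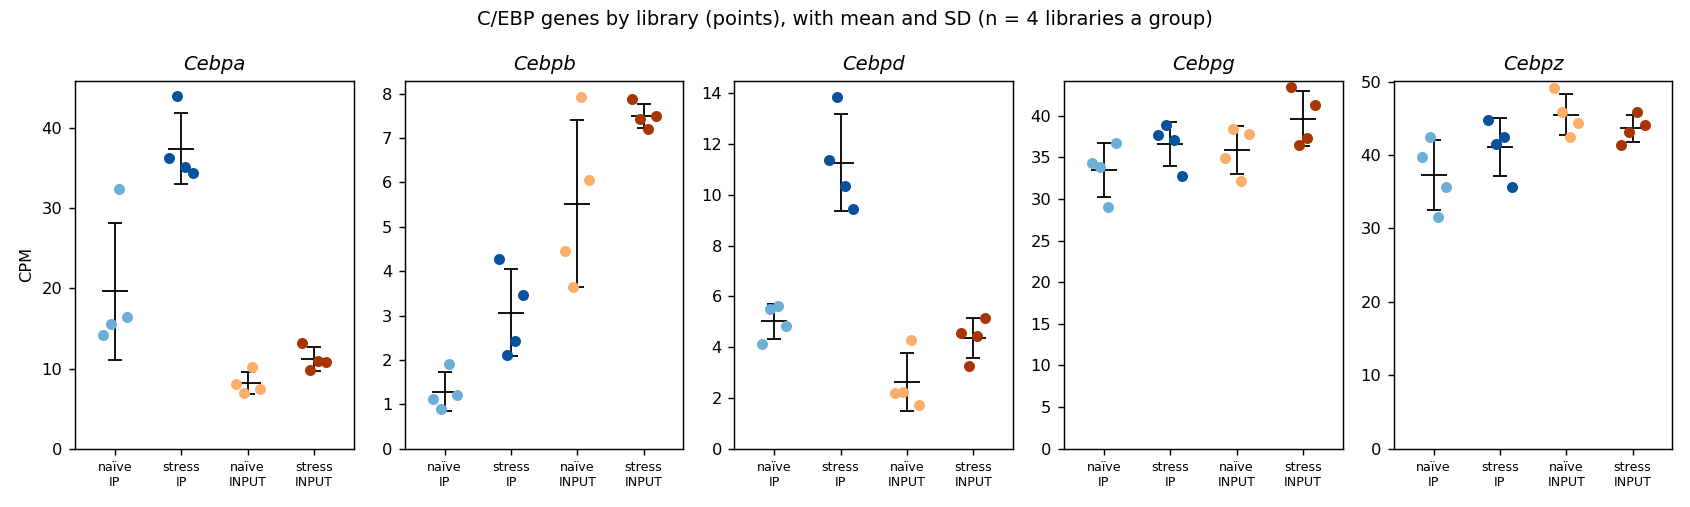
CPM of each C/EBP gene (vertical axis from 0, a scale for each gene) in each of the 16 libraries, as points in replicate order, for the naïve and stress groups of IP and then of INPUT, with the mean and SD of the 4 libraries of a group in black. *Cebpa*, *Cebpb* and *Cebpd* have no stress IP point at or below a naïve IP point, *Cebpb* is lower in IP than in INPUT, and the groups of *Cebpg* overlap throughout.

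The choice of the genes did not use the INPUT values, but by the study's methods INPUT was a part of the lysate that gave the IP. The fractions thus share mice, and the INPUT tests are not independent of the choice. In INPUT the same 3 members had higher means after stress, but none of the 5 passed the test (limma, adjusted p under 0.05), where 0.0442% of the 13577 genes tested did (6 genes). The groups overlapped for all 5, as they did for all but 2.87% of genes. Without adjustment, 3 of the 5 had p under 0.05, as did 683 of all genes tested (5.03%), and limma-voom called 0 of the 5. *Cebpa* had 8.02, 7.01, 10.2 and 7.48 CPM in naïve INPUT replicates 3, 7, 14 and 16, and 13.2, 9.82, 10.9 and 10.8 CPM in stress INPUT replicates 1, 9, 10 and 12. Naïve replicate 14 reached above the lowest stress library, so the groups overlapped. The log2 fold change was 0.45 ± 0.13 (SE, 95% interval 0.16 to 0.74, p = 0.0047, adjusted p = 0.55 by limma), and the stress value was the higher in 15 of 16 pairs of libraries (two-sided exact permutation p = 0.057, where 0.029 is the smallest that 4 against 4 allows).

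*Cebpd* had 2.20, 2.24, 4.29 and 1.73 CPM in naïve INPUT and 4.58, 3.25, 4.43 and 5.13 CPM in stress INPUT. Replicate 14 again was the naïve library that overlapped with the stress group. The log2 fold change was 0.78 ± 0.25 (SE, 95% interval 0.24 to 1.31, limma p = 0.0076, adjusted p = 0.64; exact permutation p = 0.057). *Cebpb* had 4.46, 3.65, 7.93 and 6.05 CPM in naïve INPUT and a narrow 7.87, 7.43, 7.21 and 7.50 CPM in stress INPUT. Here replicate 14 was the highest of all 8 libraries. The log2 fold change was 0.50 ± 0.19 (SE, 95% interval 0.08 to 0.92, limma p = 0.024, adjusted p = 0.92; exact permutation p = 0.14).

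Without naïve INPUT replicate 14 the log2 fold changes were 0.56 for *Cebpa*, 0.69 for *Cebpb* and 1.03 for *Cebpd*, with limma adjusted p of 0.14, 0.19 and 0.068, and the whole comparison then called 32 genes in place of 6. Leaving out other libraries lowered the values, to 0.37 for *Cebpa* without stress INPUT replicate 1, 0.32 for *Cebpb* without naïve INPUT replicate 7 and 0.61 for *Cebpd* without naïve INPUT replicate 16, and no member passed. *Cebpg* had 34.9, 38.4, 32.2 and 37.8 CPM in naïve INPUT and 43.4, 36.4, 37.3 and 41.3 CPM in stress INPUT, with a log2 fold change of 0.14 ± 0.08 (adjusted p = 0.99 by limma). *Cebpz* had 49.2, 45.9, 42.5 and 44.4 CPM in naïve INPUT and 41.4, 43.1, 45.9 and 44.1 CPM in stress INPUT, with a log2 fold change of −0.06 ± 0.07 (adjusted p = 0.99 by limma). Both overlapped, and replicate 14 was the lowest naïve INPUT library for both. The pattern of naïve INPUT replicate 14, highest for *Cebpa*, *Cebpb* and *Cebpd* and lowest for *Cebpg* and *Cebpz*, was that of naïve IP replicate 11. Whether both came from 1 mouse is not given in the labels.

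Among the 10 ratios of 2 members within a library, none passed the test between stress and naïve INPUT (exact permutation test, adjusted p between 0.29 and 0.86 over the 10 pairs, 0 pairs with an unadjusted p under 0.05). With 4 against 4, an adjusted p under 0.05 would have needed at least 6 of the 10 pairs at the smallest p, so a difference in a few pairs could not have passed. The largest shift was in *Cebpd* over *Cebpz*, with a log2 ratio of −4.15 ± 0.59 in naïve and −3.32 ± 0.27 in stress INPUT (mean ± SD, n = 4). Whether the stress effect on a member differed between IP and INPUT was not tested.

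**Figure D2:**
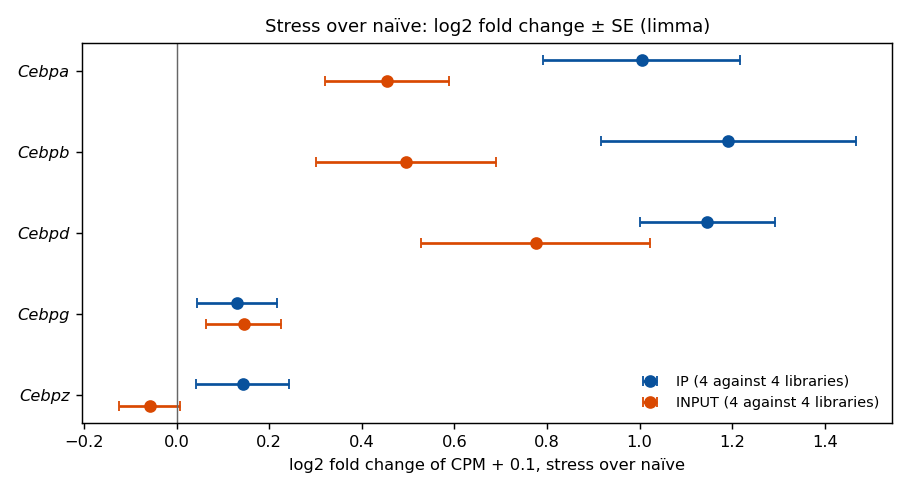
Log2 fold change of stress over naïve on log2(CPM + 0.1) for the 5 genes (horizontal axis), in IP (blue) and INPUT (orange), as the limma estimate with its standard error, 4 against 4 libraries each. *Cebpa*, *Cebpb* and *Cebpd* lie between 1.00 and 1.19 in IP and between 0.45 and 0.78 in INPUT, and *Cebpg* and *Cebpz* lie near 0 in both; the IP values are those the genes were chosen on, and no INPUT value passed the adjusted test.

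Between fractions, the members differed in direction. *Cebpb* was lower in astrocyte RNA than in the whole lysate, *Cebpd* was higher, and so, as a description, was *Cebpa*. The IP libraries belong to the contrast that led to the choice of the genes. The tests of IP against INPUT are thus not independent of that choice. In naïve mice all 4 IP values of *Cebpb* lay below all 4 INPUT values, and the log2 ratio of IP to INPUT was −2.01 ± 0.27 (SE, n = 4, limma adjusted p = 7.8e-06). In stressed mice it was −1.31 ± 0.20 (adjusted p = 5.1e-05 by limma), again without overlap. Scaling the libraries by the median ratio of their genes gave −1.40 and −0.70 in naïve and stressed mice, and quantile normalization gave −0.98 and −0.43, the last of which did not pass (limma adjusted p = 0.065). The microglial and neuronal markers, which were lower in IP as well, are given above, and their part in the *Cebpb* ratio was not tested. *Cebpd* had a log2 ratio of 0.99 ± 0.24 in naïve mice (limma adjusted p = 0.0015, exact permutation p = 0.057). There 15 of 16 pairs of libraries went in that direction, and INPUT replicate 14 lay above the lowest IP library. In stressed mice the ratio was 1.36 ± 0.17 (adjusted p = 6.4e-06 by limma) and no INPUT library reached an IP library. Under those scalings the *Cebpd* ratios were larger, at 1.61 and 1.98 (median ratio) and 2.01 and 2.19 (quantile). *Cebpa*, chosen for its IP values, had log2 ratios of 1.18 ± 0.22 and 1.74 ± 0.11, and its naïve value was 0.92 ± 0.13 without IP replicate 11. Whether a ratio differed between naïve and stressed mice was not tested.

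*Cebpg* and *Cebpz* had ratios close to 0 on this scale, on which the median of all genes tested was −0.64 in naïve and −0.63 in stressed mice. For *Cebpg* they were −0.10 ± 0.09 (limma adjusted p = 0.29) and −0.11 ± 0.08 (adjusted p = 0.22). For *Cebpz* they were −0.29 ± 0.09 (adjusted p = 0.0080) and −0.09 ± 0.08 (adjusted p = 0.30). The scale here is that of reads per library, and when libraries were scaled so that the median gene did not shift, all 4 values changed sign, to between 0.35 and 0.54 (median ratio) or between 0.28 and 0.49 (quantile), all past the threshold. Of the 4 genes tested, 3 passed in naïve mice and 2 in stressed mice, where 87.7% and 86.1% of all genes tested passed.

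The within-library ratios between members, in which a single scaling factor per library cancels, were compared between fractions in naïve mice. The log2 ratio of *Cebpb* to *Cebpd* was −1.92 ± 0.42 in IP and 1.07 ± 0.47 in INPUT (mean ± SD, n = 4), a difference of −3.00, and that to *Cebpg* differed by −1.91 and that to *Cebpz* by −1.72. Those 3 pairs, and *Cebpd* to *Cebpz* with a difference of 1.28, did not overlap between fractions (exact permutation p = 0.029, adjusted p = 0.043 over 6 pairs). An adjusted p under 0.05 needed at least 4 of the 6 pairs at the smallest p, so these pairs passed only together. As 3 of them hold *Cebpb*, they are not independent. *Cebpd* to *Cebpg* differed by 1.09 (exact permutation p = 0.086, adjusted p = 0.10) and *Cebpg* to *Cebpz* by 0.19 (exact permutation p = 0.11, adjusted p = 0.11).

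**Figure D3:**
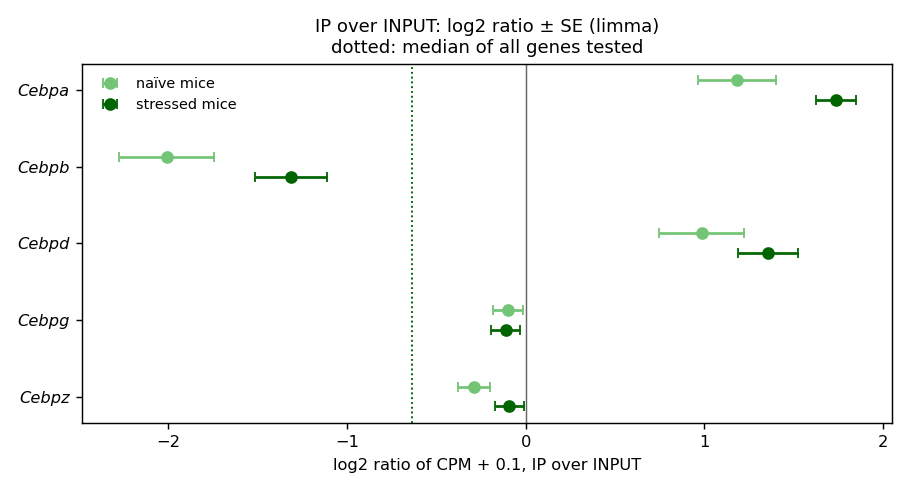
Log2 ratio of IP to INPUT on log2(CPM + 0.1) for the 5 genes (horizontal axis) in naïve (light green) and stressed mice (dark green), as the limma estimate with its standard error, 4 against 4 libraries each; dotted lines, which nearly coincide, give the median of all genes tested, −0.64 and −0.63. *Cebpb* lies to the left of the median and *Cebpa* and *Cebpd* to the right of 0, while *Cebpg* and *Cebpz* lie between the median and 0, so that their sign turns with the scaling of the libraries.

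Levels of different members were compared as CPM per 1000 bases of exon. In naïve IP the order was *Cebpz* (8.01), *Cebpa* (7.45), *Cebpg* (5.96), *Cebpd* (1.34) and *Cebpb* (0.855), and of neighbours only *Cebpg* and *Cebpd* had ranges apart. Without replicate 11 *Cebpg* (6.22) came before *Cebpa* (5.84), and those were then the only neighbours to overlap. In stress IP *Cebpa* came first with 14.2 (range 13.0 to 16.7), above *Cebpz* at 8.82, *Cebpg* at 6.51, *Cebpd* at 3.01 and *Cebpb* at 2.04, and only the last pair overlapped. *Cebpa* made up 30.8% ± 9.87 of the summed level of the 5 genes in naïve IP and 41.0% ± 2.62 in stress IP (mean ± SD, n = 4), and 25.9% ± 1.61 in naïve IP without replicate 11 (n = 3). In naïve INPUT the order was *Cebpz* (9.76), *Cebpg* (6.37), *Cebpb* (3.67), *Cebpa* (3.10) and *Cebpd* (0.698), and in stress INPUT it was the same, with 9.37, 7.05, 4.99, 4.24 and 1.16. In both INPUT groups only *Cebpb* and *Cebpa* overlapped among neighbours. The naïve INPUT order was the same without replicate 14. *Cebpb*, the lowest of the 5 in both IP groups, thus stood above *Cebpd* in INPUT.

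The annotated exon of *Cebpd* is 3746 bases in GENCODE and 2260 in RefSeq, the annotation used for counting. With the RefSeq length the naïve IP level of *Cebpd* was 2.22 (range 1.82 to 2.48), above and apart from *Cebpb*, whose highest library had 1.26. In stress IP it was 4.98 (4.18 to 6.13), apart from *Cebpb*, whose highest library had 2.82. It overlapped with *Cebpg* at the GENCODE exon length of that gene, where its libraries had 5.83 to 6.92. Over its longest transcript *Cebpg* had 6.96 to 8.26, apart from *Cebpd*. The RefSeq length was applied to the single-exon members only. The order of means was the same in all 4 groups with either length of the single-exon members.

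**Figure D4:**
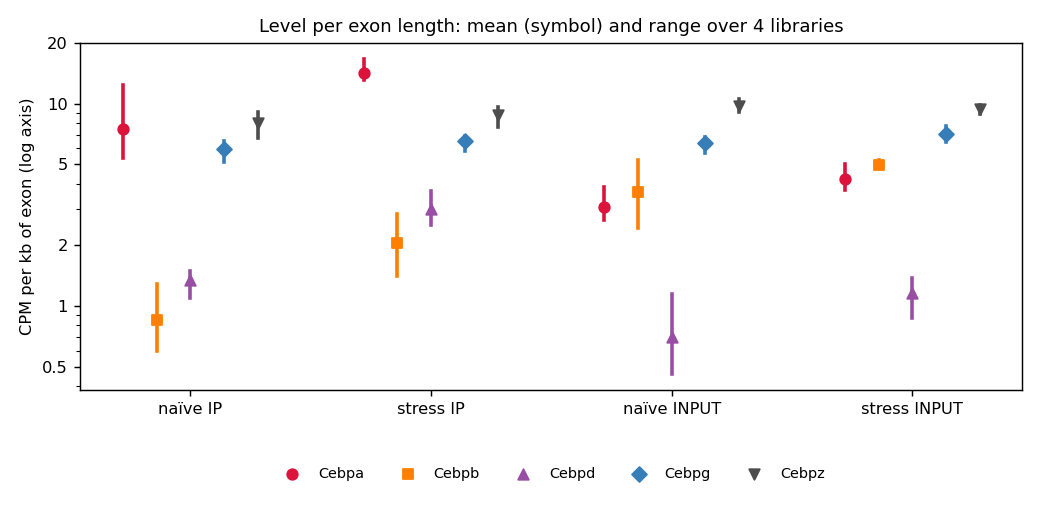
Level of each C/EBP gene as CPM per 1000 bases of GENCODE exon (log axis) in the 4 groups, with the mean of 4 libraries as a symbol and the lowest to highest library as a line. The mean of *Cebpa* stands above that of *Cebpz* in stress IP only, at 14.2 against 8.82, and *Cebpb* and *Cebpd* exchange places between IP and INPUT.

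A list of 46 genes related to the family by role was written with earlier results of these data known, and 32 of them passed the filter in IP and 33 in INPUT. None passed the test between stressed and naïve mice in either fraction (limma, adjusted p under 0.05), where 0.44% of 12501 genes did in IP and 0.0442% in INPUT. At an unadjusted p under 0.05 there were 10 in IP (5 higher, 5 lower) and 8 in INPUT (4 higher, 4 lower), beside 8.27% and 5.03% of all genes tested. Limma-voom called 0 in both. Of the bZIP partners *Atf4*, *Atf5* and *Ddit3*, which dimerize with C/EBP proteins, *Atf5* had the largest value in IP, −0.29 ± 0.12 (log2 fold change ± SE, adjusted p = 0.55), and *Ddit3* had −0.18 ± 0.12 and *Atf4* 0.04 ± 0.11. *Atf3* stayed below the filter, with at most 0.502 CPM in any library.

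Among 12 receptors and factors that act upstream of the family, the log2 fold changes in IP ran from −0.36 to 0.34 over the 11 tested, with a median of −0.01, beside −0.00 for all genes. The ends were *Crtc2*, a cAMP-responsive coactivator (−0.36 ± 0.12, limma adjusted p = 0.39), and *Tlr4*, the receptor for bacterial lipopolysaccharide (0.34 ± 0.14, adjusted p = 0.56). *Lifr*, a receptor subunit for cytokines of the interleukin-6 family, had 0.20 ± 0.08 (adjusted p = 0.52), and *Crtc1*, the coactivator related to *Crtc2*, had −0.20 ± 0.10 (adjusted p = 0.65).

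Among 6 tested genes of protein turnover and modification, *Trib2*, a pseudokinase that steers C/EBPα to degradation, had 74.8, 123, 133 and 140 CPM in the naïve IP libraries and 63.9, 69.1, 76.8 and 87.3 CPM in stress IP, in order of size. The lowest naïve library reached into the stress group, and the log2 fold change was −0.63 ± 0.17 (limma adjusted p = 0.23). In INPUT its value was 0.35 ± 0.11 (adjusted p = 0.61), in the opposite direction, and the difference between fractions was not tested. *Trib1*, its relative, had 0.45 ± 0.13 in IP (adjusted p = 0.31), *Siah2*, a ubiquitin ligase, −0.51 ± 0.16 (adjusted p = 0.36), and *Gsk3b*, a kinase that phosphorylates C/EBP proteins, −0.17 ± 0.07 (adjusted p = 0.57). Without naïve IP replicate 11 both *Trib* genes passed the test, at −0.83 (limma adjusted p = 0.0012) for *Trib2* and 0.57 (adjusted p = 0.027) for *Trib1*. That run called 122 of 12495 genes, in place of 55 with all libraries. Of 18 alternative settings, *Trib2* passed in 2 and *Trib1* in 1.

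Of 16 genes known as C/EBP targets, 6 passed the filter. *Cdkn1a*, the cell cycle inhibitor p21, had 2.69, 2.87, 3.63 and 8.54 CPM in the naïve IP libraries and 10.0, 11.6, 15.6 and 32.6 CPM in stress IP, in order of size. The groups did not overlap, and the highest naïve value was that of replicate 11. The log2 fold change was 1.96 ± 0.39 (adjusted p = 0.063 by limma). Without replicate 11, in the run that called 122 genes in place of 55, it was 2.32 (limma adjusted p = 0.0035). *Ppp1r3c*, a scaffold that promotes glycogen synthesis, ran from 502 to 568 CPM in the naïve and from 616 to 705 CPM in the stress libraries of IP, also without overlap, with 0.28 ± 0.06 (adjusted p = 0.088). *Ptgs2*, the inducible cyclooxygenase, had −0.14 ± 0.27 and *Pparg*, the adipogenic nuclear receptor, −0.13 ± 0.30. The acute phase and cytokine targets *Lcn2*, *C3*, *Hp*, *Saa3*, *Il6*, *Ccl2*, *Cxcl1* and *Ptx3*, with *Fabp4* and *Pck1*, were below the filter, with at most 0.343 CPM in any IP library and 1.37 CPM in any INPUT library, and were not tested. For *Cebpz*, the 6 CBF-domain and CCAAT-box genes ran from −0.26 (*Noc4l*) to 0.14 (*Nfyb*) in IP, with adjusted p of 0.69 or above.

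Between IP and INPUT in naïve mice, 30 of the 33 related genes tested passed, 12 higher and 18 lower, beside 23.7% and 64% of all genes. Of the upstream genes 6 were higher and 3 lower. The largest increases there, named after their values were seen, were *Il6st*, the signal-transducing subunit for interleukin-6 cytokines (1.84 ± 0.06, limma adjusted p = 2.0e-12), *Osmr*, the oncostatin M receptor (1.46 ± 0.14, adjusted p = 2.2e-07), and *Stat3*, the factor below them (1.46 ± 0.05, adjusted p = 8.2e-12). The 3 lower were *Il6ra* (−1.91 ± 0.23, limma adjusted p = 2.7e-06), *Crtc1* (−1.88 ± 0.09, adjusted p = 2.0e-10) and *Creb1* (−1.22 ± 0.07, adjusted p = 9.6e-10).

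**Figure D5:**
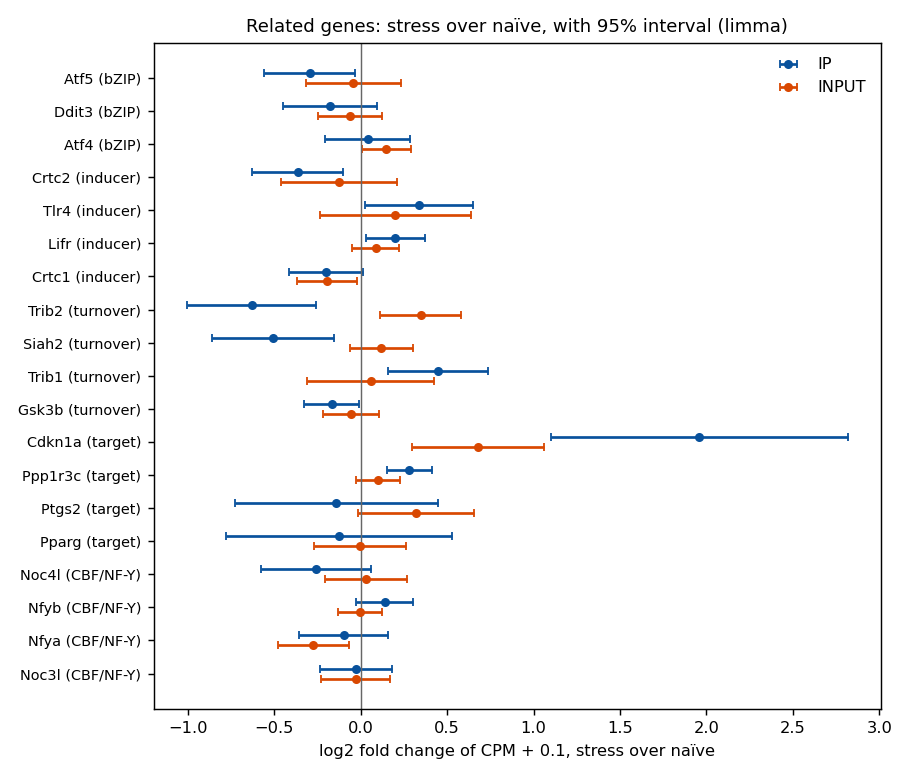
Log2 fold change of stress over naïve on log2(CPM + 0.1) (horizontal axis) for 19 genes related to the C/EBP family, in IP (blue) and INPUT (orange), as limma estimates with 95% intervals; the word after each symbol gives its list. *Cdkn1a* lies farthest from 0 at 1.96 in IP, the rest lie within 0.7 of it, and none passed the adjusted test.

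Of 11 genes next to or overlapping members, 9 passed the filter on low values, and none of these passed the test between stressed and naïve mice in IP or INPUT. At an unadjusted p under 0.05 there were 2 in IP (*Cebpzos* and *Pkp2*) and 2 in INPUT (*Pepd* and *Pkp2*), beside 8.27% and 5.03% of all genes tested. Limma-voom called 0. *Pkp2*, which encodes the desmosomal protein plakophilin and is the next gene to the right of *Cebpd*, 322286 bases away, had 0.859 ± 0.390 CPM in naïve and 1.77 ± 0.876 CPM in stress IP (mean ± SD, n = 4), a log2 fold change of 0.92 ± 0.38 (limma adjusted p = 0.55). In INPUT it had 3.28 ± 0.688 and 6.16 ± 1.08 CPM without overlap, a log2 fold change of 0.90 ± 0.18 (limma adjusted p = 0.12). *Slc7a10*, an amino acid transporter gene of astrocytes that lies 64456 bases to the right of *Cebpa*, had 292 ± 18.9 CPM in the naïve and 283 ± 16.6 CPM in the stress libraries of IP (mean ± SD, n = 4). Its log2 fold change was −0.04 ± 0.06 (limma adjusted p = 0.92), although its log2 ratio of IP to INPUT in naïve mice was 3.46. *Pepd*, a peptidase gene 1713 bases from *Cebpg*, had 0.20 ± 0.09 in IP (adjusted p = 0.62). Of the genes that share exon bases with members, *Tmem189* had −0.14 ± 0.08, *Spidr* −0.08 ± 0.14 and *Cebpzos* 0.33 ± 0.12 in IP (adjusted p of 0.71, 0.93 and 0.46 by limma), against 1.19 for *Cebpb*, 1.15 for *Cebpd* and 0.14 for *Cebpz*.

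Across the 16 libraries, the genes whose log2(CPM + 0.1) followed each member most closely were found among 13340 others by Pearson's r, as a description in which the points share groups and fractions. For *Cebpa* they were *Tsc22d3* (0.98), *Nrros* (0.98), *Slc35e4* (0.97), *Tob2* (0.97) and *Rrp8* (0.97). For *Cebpd* they were *Nfkbia* (0.94), *Slc35e4* (0.94), *Tsc22d3* (0.93), *Trp53inp1* (0.93) and *Cebpa* itself (0.93), so that *Slc35e4* and *Tsc22d3* stood in both lists. *Cebpb* had other companions, *Ccdc3* (0.96), *Zbtb16* (0.95), *Bmf* (0.95), *Slc19a2* (0.94) and *Errfi1* (0.94), and its r with *Cebpa* was −0.43. *Cebpg* followed no gene above 0.82 (*0610037L13Rik*, then *Dph5*, *Hr*, *Tmem223* and *Nsmaf*), and *Cebpz* was closest to *Tra2a* (0.91), *Rpf2* (0.89), *Pibf1* (0.89), *Palmd* (0.88) and *Nol7* (0.87).

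Within the 8 IP libraries, where fraction no longer sets the values apart but stress does, *Cebpa* had r of 0.84 with *Cebpb* and 0.89 with *Cebpd*, against 0.15 with *Cebpg* and 0.05 with *Cebpz*. *Cebpg* and *Cebpz* had r of 0.76 with each other. The closest genes there were *Nrros* (0.98), *Klf15* (0.98), *Rhou* (0.98), *Tob2* (0.98) and *Csrnp1* (0.98) for *Cebpa*, *Ccdc3* (0.94), *Bambi* (0.94), *Irs2* (0.94), *Usp53* (0.93) and *Rin2* (0.92) for *Cebpb*, and *Ears2* (0.98), *Slc35e4* (0.98), *Rasl11a* (0.96), *Ppp1r3g* (0.96) and *Tiparp* (0.96) for *Cebpd*. For *Cebpg* they were *Gm14420* (0.98), *Vipas39* (0.97), *Ing4* (0.97), *Psmd6* (0.97) and *Rps25* (0.96), and for *Cebpz* *Rit1* (0.98), *Zfp397* (0.97), *Cntln* (0.96), *Memo1* (0.96) and *Golga5* (0.96). Within the 8 INPUT libraries *Cebpa* had r of 0.83 with *Cebpb* and 0.90 with *Cebpd*, and 0.36 with *Cebpg*. There *Cebpg* and *Cebpz* had r of −0.28 with each other, opposite in sign to IP. *Cebpz* had r of −0.62 with *Cebpa*, −0.73 with *Cebpb* and −0.52 with *Cebpd*.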

How the data were processed

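RNA-seq libraries of IP and of INPUT were made from naïve and stressed mice, 4 of each kind and 16 in all. The authors removed ribosomal RNA, aligned reads to mm10 with STAR, counted uniquely mapped fragments on RefSeq genes with HTSeq, and deposited the log2 CPM of 24060 genes per library, with a small constant and no gene length. From the floor shared by all libraries the constant was removed, after which 100% of values were whole reads (within 0.05 of a read). No library was identical to another.

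The groups, 4 against 4, were tested by limma (version 3.58.1, R 4.3.3), using lmFit and then eBayes with a mean trend. The values were log2(CPM + 0.1). Genes entered where their 8 libraries averaged over 1 CPM, and a call needed an adjusted p (Benjamini-Hochberg, all genes tested) under 0.05. Fold changes on this scale understate those of low genes. Ratios between members had two-sided exact permutation tests over 70 labelings, adjusted over pairs (SciPy 1.17.1). The fit was tested on simulated reads. Exons came from GENCODE M21 on GRCm38 and start regions from RefSeq on GRCm38.p6, matched for 3 of the 5 members.

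The members and the lists were chosen with earlier results of these data known. Named were all members, the up to 4 tested genes of each related list with the largest absolute log2 fold change of stress over naïve in IP and any past the threshold, the 5 genes most like each member over 16 libraries and over the 8 IP libraries, markers and neighbours. Alternatives were other pseudocounts, filters and scalings, limma-voom on recovered reads, array weights, no trend, all 16 libraries in one model, other gene lengths and each library left out. Reads after PCR are not independent molecules, so the limit of 3 reads covers counting error only.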

Additional observations from a re-analysis of the deposited data

Results flagged for a closer look

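In 96 groups of 4 values (the 5 members and 19 related genes in each group of libraries), 8 held a library far from the other 3, by Dixon's test at 95%, where chance gives about 1 in 20, or 4.8. Among the members, *Cebpa* had 32.4 CPM in naïve IP replicate 11, where the rest of the group held 14.1 to 16.5 CPM. The same library held *Cdkn1a* at 8.54 CPM, against 2.69 to 3.63, and *Noc3l* at 19.5 CPM, against 23.5 to 24.1. In naïve INPUT, *Pparg* had 9.33 CPM in replicate 14, against 10.8 to 11.0, and *Cdkn1a* had 9.07 CPM in replicate 7, against 6.23 to 6.51. In stress INPUT, *Lifr* had 110.8 CPM in replicate 9, against 127.9 to 129.8, and *Trib1* had 17.5 CPM in replicate 1, against 14.7 to 15.1. In stress IP, *Nfya* had 9.32 CPM in replicate 15, against 11.0 to 11.1. The library behind 3 of the 8, naïve IP replicate 11, is also the one without which the log2 fold change of *Cebpa* in IP was 1.27 in place of 1.00.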

How the results depend on the processing

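Of the 4 comparisons, those of stress kept the direction of each member in every alternative run in which it was fitted. In IP *Cebpa* ran from 0.88 to 1.27, *Cebpb* from 0.82 to 1.39 and *Cebpd* from 1.02 to 1.23 on the log2 scale. In INPUT no member passed in any run (lowest limma adjusted p 0.068, *Cebpd* without naïve INPUT replicate 14). The filter at a mean above 5 CPM left out *Cebpb* from the stress comparison in IP and *Cebpd* from that in INPUT. Scaling moved the IP to INPUT ratios. Under median-ratio scaling *Cebpg* became 0.54 in naïve and 0.51 in stressed mice and *Cebpz* 0.35 and 0.54, so that 4 members in place of 2 passed in stressed mice. Under quantile normalization *Cebpg* became 0.48 and 0.47 and *Cebpz* 0.28 and 0.49, and *Cebpb* in stressed mice fell short (−0.43, limma adjusted p = 0.065). *Cebpa* moved to 1.82 and 2.36 under median-ratio scaling and to 1.89 and 2.39 under quantile normalization. These scalings set the median gene near 0. With a mean above 5 CPM, *Cebpb* and *Cebpd* were not tested in naïve mice and 1 member passed in place of 3. Leaving out libraries changed no call of a member. Among related genes in IP, leaving out a library turned the sign of 4 small values, which ranged from −0.041 to 0.12 for *Atf4*, from −0.24 to 0.049 for *Ptgs2* (0.066 with array weights), from −0.35 to 0.13 for *Pparg* and from −0.10 to 0.0088 for *Noc3l*. With array weights *Cdkn1a*, *Trib2* and *Ppp1r3c* passed in IP, and *Cdkn1a* in INPUT (adjusted p = 0.041 by limma). With all 16 libraries in one model, *Cdkn1a* and *Ppp1r3c* passed in IP, and *Cdkn1a* also without stress IP replicate 15 (adjusted p = 0.024). Array weights raised the calls over all genes from 55 to 143 in IP and from 6 to 50 in INPUT, and leave-one-out fits gave 17 to 122 and 1 to 32. All 16 libraries in one model called 124 in IP and 2 in INPUT, and a variance without trend 19 and 0. Another gene length moved 12 levels per length by more than 1 SD, and the RefSeq length of single-exon members and the level order without naïve IP replicate 11 or naïve INPUT replicate 14 were chosen after seeing the data. The low reads of *Cebpb* in IP limit its precision. No paired analysis was possible because the groups share no replicate number and the labels do not say which libraries came from the same mouse.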
